A study of Homo sapiens with 9 samples.

Results

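The genes described here are DHRS9 and 9 other genes of retinoid metabolism (DHRS3, RDH10, RDH11, ALDH1A1, ALDH1A3, CYP26B1, CRABP2, RARA and RARB), out of 22354 genes with a probe set of their own. A gene was taken through the probe set whose annotation gives its symbol alone, and each of the 10 had 1 such probe set. DHRS9 was selected on its higher signal with GNE-140 in this same contrast, and the other 9 as genes of its pathway with that result known. The cells were MDA-MB-231, a long-established breast cancer line that lacks estrogen and progesterone receptors and HER2 amplification, and their RNA was hybridised to 9 Affymetrix arrays of the type Human Gene 2.1 ST. By titles and treatment labels, set 1 had 3 controls and 2 arrays with GNE-140, and set 2 had 2 controls and 2 arrays with GNE-140, an inhibitor of the lactate dehydrogenases A, B and C. GNE-140 was given at 50 µM and cells were taken at 24 h, and the labels leave out whether its solvent, DMSO, was added to controls. The study's text divides the arrays between controls and GNE-140 differently in each set, and the labels were followed here. For 6 of the 9 arrays, namely all 4 with GNE-140 and both controls of set 2, the source name gives a Boswellia extract or a boswellic acid instead. Neither conflict could be settled, both touch every difference below, and the source names leave no array of set 2 free of theirs. Nothing in the labels ties an array to a culture of its own. The p-values below therefore cover array-to-array spread alone, and that spread may be technical.

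Retinoic acid is made from retinol (vitamin A) in steps. Retinol dehydrogenases of the short-chain dehydrogenase/reductase family (DHRS9, RDH10) oxidize retinol to retinal, and related enzymes (DHRS3, RDH11) mostly reduce retinal back. Aldehyde dehydrogenases (ALDH1A1, ALDH1A3) turn retinal into retinoic acid irreversibly, and CYP26B1 hydroxylates retinoic acid for breakdown. CRABP2 carries retinoic acid to its nuclear receptors, among them RARA and RARB, which bind DNA with RXR partners and switch target genes. Several genes of the pathway, such as DHRS3, CYP26B1 and RARB, are known targets of retinoic acid. DHRS9 also oxidizes 3-alpha-hydroxysteroids.

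The deposited values are log2 signals, and the sets lay on different scales, with array medians of 1.32 to 1.36 in set 1 and 2.27 to 2.31 in set 2. GNE-140 was therefore compared with control within each set and with the set as a block in limma, where a probe set passed at a Benjamini-Hochberg adjusted p under 0.1 over all 53617 probe sets. In that fit 517 probe sets passed (0.964%), of which 232 were higher (0.433%) and 285 lower (0.532%). Counted by gene, 380 of 22354 passed (1.7%), with 152 higher (0.68%) and 228 lower (1.02%). Identical values on at least 3 of the 5 set 1 arrays were seen for 48.8% of genes, and for 5 of the 10 genes described here. The line's mesenchymal markers lay above the array median on all 9 arrays for 6 of 6 genes (VIM 7.33 to 7.64), and 2 of these 6 had each GNE-140 array below each control of its set, as had 3.28% of all genes. Of 10 luminal markers, 6 lay above the median on all 9 arrays (GATA3, KRT8, KRT18, KRT19, EPCAM and ERBB3) and CDH1 on 7, while the estrogen receptor gene ESR1, the progesterone receptor gene PGR and FOXA1 lay below it on all 9. Of 5 leukocyte and 5 fibroblast markers none passed, the leukocyte genes PTPRC, CD3E and ITGAM and the fibroblast genes DCN and LUM lay below the median on every array, CD14 lay above it on 4 arrays, LYZ on 5, COL1A2 and PDGFRB on 1 each, and the collagen gene COL1A1 on all 9. Among the luminal markers, KRT18 was lower with GNE-140 (log2 difference -0.45, adjusted p = 0.050 from limma) and the other 9 did not pass. The summed log2 signal of the luminal list was 25.3 to 36.2 in controls and 24.6 to 34.7 with GNE-140, with each GNE-140 array below each control of its set for 3 of the 10 genes, and its part in the values below was not tested. The sums of the leukocyte list were 5.07 to 9.14 and 4.98 to 9.09, and those of the fibroblast list 5.90 to 10.4 and 5.45 to 10.2. All these ranges run over both sets, whose scales differ, so they cannot show an effect of GNE-140. In bulk RNA, fewer cells of a type and less RNA per cell cannot be told apart.

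DHRS9 had the highest log2 difference of the 10 genes, a rank that its selection on this contrast favored and that is no finding. The next was that of RDH10, which makes retinal as well. None of the 9 genes other than DHRS9 passed the test, against 1.7% of all genes, and by the same fit 1 of the 9 (RDH10) had an unadjusted p under 0.05, as did 13.7% of all genes. Of the 9, 6 had a log2 difference above 0 and 3 below, with a median of 0.0087, beside 0.0066 over all genes. The plot of log2 signals by array shows the values that these differences come from.

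**Figure D1:**
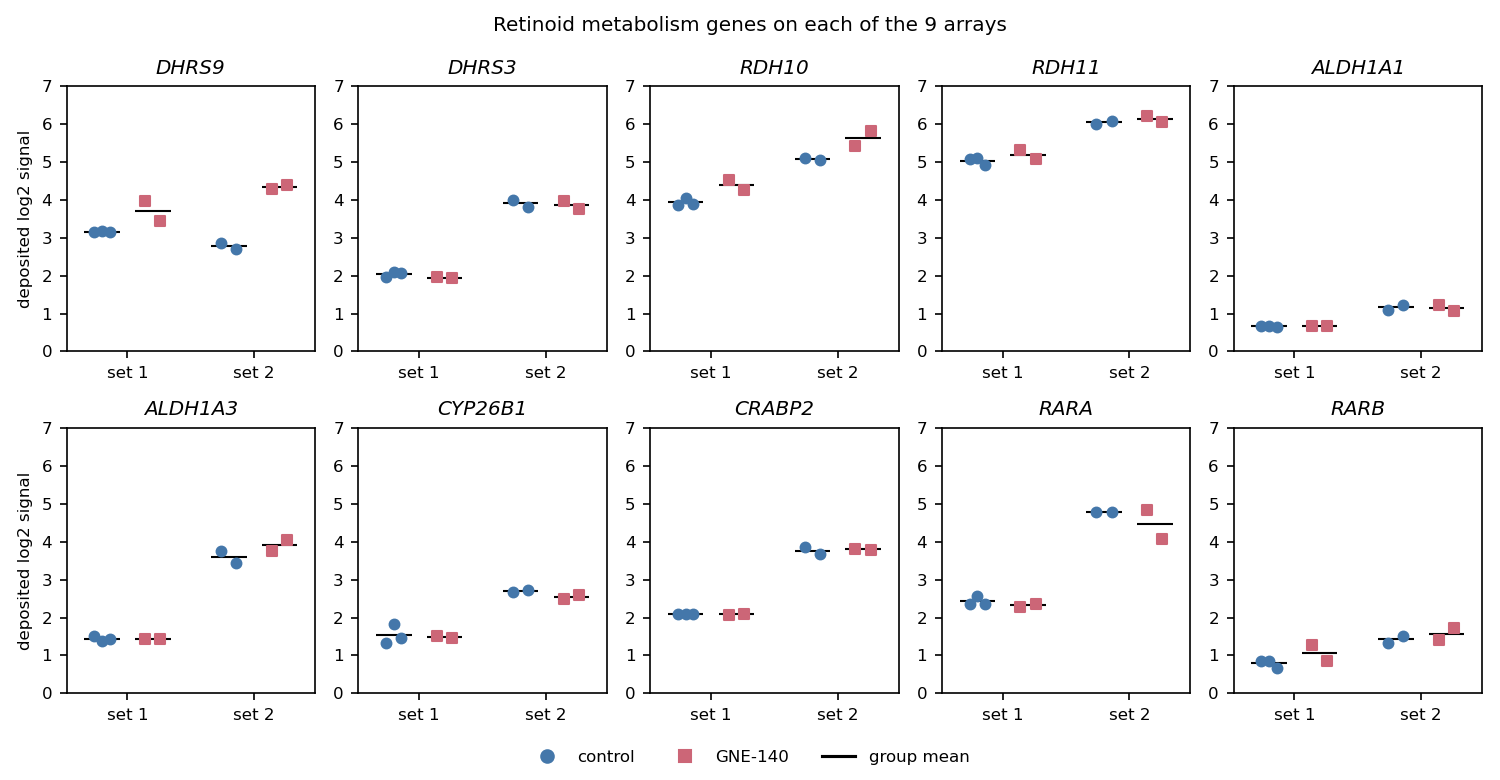
Deposited log2 signal (vertical axis) of each of the 10 genes on the 9 arrays, by set, with controls as blue circles, GNE-140 as red squares and the group mean as a black line. In both sets the GNE-140 arrays lie above the controls for DHRS9 and RDH10, and for the other 8 genes the groups overlap in 1 or both sets.

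DHRS9 lies on chromosome 2 (bases 169067077 to 169096167, GRCh38.p14). Its signal in the controls of set 1 was 3.14, 3.17 and 3.14, and with GNE-140 it was 3.97 and 3.44. In set 2 the controls had 2.85 and 2.71, and the GNE-140 arrays 4.29 and 4.39. In both sets each GNE-140 array was above each control, and the 2 arrays with GNE-140 of set 1 differed more from each other than the 3 controls did. The log2 difference was 0.56 (standard error 0.15) in set 1 and 1.56 (standard error 0.16) in set 2, which as folds are 1.47 and 2.94. With the set as a block it was 1.01 (standard error 0.20), a fold of 2.02. Since this contrast chose DHRS9, these differences are a description and no test is given for them. The response in set 2 exceeded that in set 1 by 1.00 (standard error 0.22), also a description. Without GNE-140 array B of set 1 the difference with the set as a block was 1.24, and leaving out each array in turn gave 0.89 to 1.24.

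DHRS9 was also the 1 gene of the 10 whose controls were lower in set 2 than in set 1, by a mean log2 of -0.37. For the other 9 the controls of set 2 were higher by 0.49 to 2.36, while the array medians of the controls were higher by 0.94. Over all genes, 3.48% had lower controls in set 2. The controls of set 2 enter the difference that DHRS9 was selected on, so its lower controls are not independent of that choice. Measured from each array's median, the controls of DHRS9 stood at 1.82 in set 1 and at 0.51 in set 2, and the GNE-140 arrays at 2.37 and 2.03. The sets thus lay closer together on this scale with GNE-140 than in the controls. Set, scale and the conflicting source names cannot be told apart here.

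RDH10, the main retinol dehydrogenase of the embryo in mice, lies on chromosome 8 (bases 73294602 to 73325281, GRCh38.p14). Its signal was 3.85, 4.05 and 3.90 in the controls of set 1 and 4.52 and 4.25 with GNE-140. The controls of set 2 had 5.11 and 5.05 and the GNE-140 arrays 5.43 and 5.81. Here, too, each GNE-140 array was above each control of its set, as for 3.85% of all genes. The log2 difference was 0.49 (standard error 0.099, 95% interval 0.27 to 0.72), with 0.45 in set 1 and 0.54 in set 2. It did not pass, by a narrow margin (adjusted p = 0.1002 from limma). It passed after quantile normalization (adjusted p = 0.077 from limma) and when dim probe sets were not tested (adjusted p = 0.061 from limma), and in none of the 9 fits without 1 array.

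DHRS3, whose product reduces retinal to retinol, differed from DHRS9 and RDH10 in that in neither set was each GNE-140 array above each control. In set 1 control A and GNE-140 array A of DHRS3 had the same value, and in set 2 its groups overlapped. Its signal was 1.96, 2.10 and 2.07 in the controls of set 1 against 1.96 and 1.94 with GNE-140, and 3.99 and 3.82 against 3.96 and 3.76 in set 2. Its log2 difference was -0.07 (standard error 0.070, 95% interval -0.23 to 0.09, adjusted p = 0.761 from limma). RDH11, a retinal reductase, had 5.07, 5.09 and 4.93 in the controls of set 1 and 5.31 and 5.07 with GNE-140. The controls of set 2 had 5.996 and 6.09 and the GNE-140 arrays 6.22 and 6.04, so that the groups overlapped in both sets. Its log2 difference was 0.13 (standard error 0.077, 95% interval -0.05 to 0.30, adjusted p = 0.617 from limma).

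The genes of the retinal-oxidizing enzymes did not pass. ALDH1A1, a marker much used for breast cancer stem cells, lay below the array median on all 9 arrays, with 0.65 to 0.68 on the 5 arrays of set 1 and 1.07 to 1.23 in set 2. Of its values in set 1, 4 were identical, and its log2 difference was 0.0016 (standard error 0.060, adjusted p = 0.996 from limma). At so low a signal a change may not be detectable. ALDH1A3, the other retinal dehydrogenase known from breast cancer cells, had 1.504, 1.37 and 1.42 in the controls of set 1 and 1.42 on both GNE-140 arrays. The set 2 values were 3.75 and 3.43 in controls and 3.76 and 4.05 with GNE-140. The log2 difference was -0.0099 in set 1 and 0.31 in set 2, and the sets did not differ past the threshold (difference 0.32, 95% interval -0.11 to 0.76, adjusted p = 0.691 from limma's interaction term). Together the log2 difference was 0.14 (standard error 0.10, adjusted p = 0.680 from limma). Its lead over the array median was 0.10 in the controls of set 1 and 1.32 in those of set 2.

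CYP26B1, which clears retinoic acid, had 1.33, 1.84 and 1.47 in the controls of set 1 against 1.51 and 1.47 with GNE-140. In set 2 both GNE-140 arrays (2.48 and 2.60) were below both controls (2.68 and 2.73), while in set 1 the groups overlapped. GNE-140 and control differed by a log2 of -0.11 (standard error 0.10, 95% interval -0.34 to 0.13, adjusted p = 0.756 from limma). CRABP2, the carrier, had the same value of 2.09 on 4 of the 5 arrays of set 1 and 2.07 on GNE-140 array A. Set 2 gave 3.86 and 3.67 in controls and 3.81 and 3.78 with GNE-140, both between the controls. Its log2 difference was 0.0087 (standard error 0.059, 95% interval -0.13 to 0.14, adjusted p = 0.974 from limma).

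Neither of the receptor genes passed. RARA had 2.36, 2.58 and 2.36 in the controls of set 1 and 2.28 and 2.36 with GNE-140. In set 2 the controls had 4.79 and 4.78, and the GNE-140 arrays 4.85 and 4.06, so that 1 array, B, was far below the other 3. Both sets together gave a log2 difference of -0.21 (standard error 0.15, adjusted p = 0.665 from limma). It was -0.05 without GNE-140 array B of set 2 and -0.33 without GNE-140 array A of that set. RARB lay below the array median on all 9 arrays, with 0.85, 0.85 and 0.67 in the controls of set 1 and 1.28 and 0.85 with GNE-140. In set 2 it had 1.34 and 1.52 in controls and 1.41 and 1.73 with GNE-140. Its log2 difference was 0.21 (standard error 0.11, 95% interval -0.05 to 0.47, adjusted p = 0.564 from limma). At so low a signal a change of RARB may not be detectable.

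**Figure D2:**
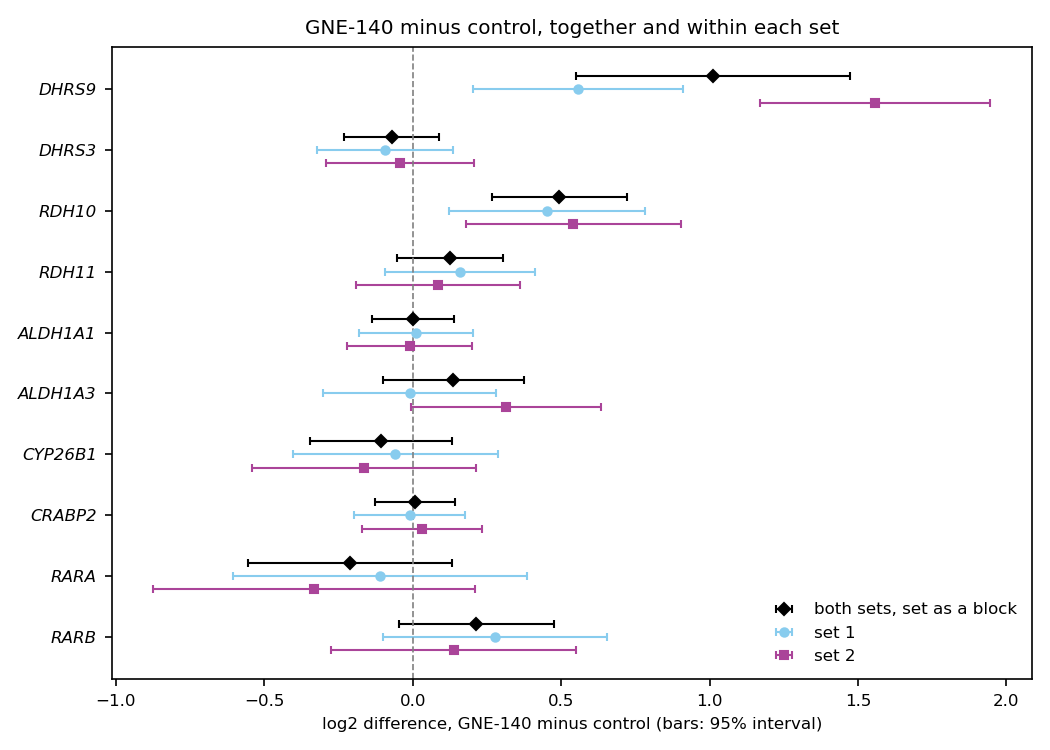
Log2 difference of GNE-140 minus control (horizontal axis) for each of the 10 genes, with both sets together and the set as a block (black diamonds), in set 1 (light blue circles) and in set 2 (purple squares), and bars for 95% intervals from limma. The intervals of DHRS9, shown as a description, and of RDH10 lie above 0 in each of the 3 fits, and those of the other 8 genes include 0 in all of them.

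For the 9 genes other than DHRS9, the response in set 2 was also tested against that in set 1. None of them passed (adjusted p = 0.691 to 0.977 from limma's interaction term), where 0.0179% of all genes did. The difference was 0.09 for RDH10 (95% interval -0.40 to 0.58) and -0.22 for RARA (95% interval -0.96 to 0.51), so these intervals leave room for a sizeable difference either way. The sign of the log2 difference was the same in both sets for 6 of the 9.

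Of the wider pathway, NRIP1 was the gene that rose. NRIP1 encodes a corepressor that binds retinoic acid receptors and other nuclear receptors when they hold their ligand, and it is itself induced by retinoic acid. Its signal was 4.86, 4.88 and 4.76 in the controls of set 1 and 5.52 and 5.38 with GNE-140. In set 2 it was 5.09 and 5.43 in controls and 5.99 and 6.09 with GNE-140. Again each GNE-140 array was above each control of its set, as for 3.85% of all genes. The log2 difference was 0.69 (standard error 0.087, adjusted p = 0.020 from limma), with 0.62 in set 1 and 0.78 in set 2, and the sets did not differ past the threshold (adjusted p = 0.834 from limma's interaction term). With each array left out in turn, NRIP1 passed 9 of 9 times. It did not pass without the set term (log2 difference 0.74, adjusted p = 1.00 from limma) or with the replicate block (0.68, adjusted p = 0.177 from limma), and under both of these 0 probe sets passed.

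The base sequence before the start sites of 3 genes is shown because the question of retinoic acid response elements goes with the pathway, for DHRS9 as the gene with the highest difference, for NRIP1 as the gene that rose, and for RARB as the textbook case of such an element. Each is the first window listed for its gene, 250 bases from RefSeq (GRCh38.p14), 5′ to 3′ in the direction of transcription, ending at the base before a start. They lie at chr2:169066827-169067076 (plus strand), chr21:15065937-15066186 (minus strand) and chr3:25428013-25428262 (plus strand). Capitals mark receptor hexamers, searched on both strands: AGGTCA, which 12.1% of all windows of this length held, AGTTCA, which 8.80% held, GGTTCA, which 7.16% held, and GGGTCA, which 12.1% held.
DHRS9: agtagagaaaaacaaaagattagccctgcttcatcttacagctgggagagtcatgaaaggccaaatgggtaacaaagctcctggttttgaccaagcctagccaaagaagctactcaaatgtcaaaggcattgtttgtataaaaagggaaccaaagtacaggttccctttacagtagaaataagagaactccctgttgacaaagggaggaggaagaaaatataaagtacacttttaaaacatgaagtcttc
NRIP1: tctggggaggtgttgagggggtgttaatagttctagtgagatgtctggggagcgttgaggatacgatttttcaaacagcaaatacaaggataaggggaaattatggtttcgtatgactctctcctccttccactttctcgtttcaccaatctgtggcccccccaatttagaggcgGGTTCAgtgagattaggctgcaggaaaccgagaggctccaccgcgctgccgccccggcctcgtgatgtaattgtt
RARB: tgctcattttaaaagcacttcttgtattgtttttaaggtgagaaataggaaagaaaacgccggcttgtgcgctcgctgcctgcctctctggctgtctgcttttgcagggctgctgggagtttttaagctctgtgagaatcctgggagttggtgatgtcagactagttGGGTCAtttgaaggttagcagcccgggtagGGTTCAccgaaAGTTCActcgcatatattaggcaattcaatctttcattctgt
The RARB window held GGTTCA followed by AGTTCA as a direct repeat with a spacer of 5 bases, the arrangement that RAR and RXR pairs bind, at positions -53 to -37 before the start. The NRIP1 window held 1 hexamer and this DHRS9 window none, while 1 of the 4 windows of DHRS9 had AGTTCA on the minus strand and the other 2 of the 3 NRIP1 windows had no hexamer. Of the 10 genes, 9 had start sites in the table, with 19 windows. Of these, 8 held a hexamer, where 33.8% of all 35116 windows did. The direct repeat, which 0.0740% of all windows held, was found in 1 RARB window and in no window of another of these genes. As RARB is the textbook case, its repeat was known beforehand, and enrichment among these genes was not tested. RARB, with the repeat, was below the array median throughout. A match describes the letters only.

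Over 6 lists of the wider pathway (65 genes), 53 were measured, of which 1 rose and none fell (background 0.68% higher and 1.02% lower). Their median log2 difference was 0.03, and 7 of the 53 had an unadjusted p under 0.05, where 13.7% of all genes did. Many were dim. Above the array median on all 9 arrays lay 2 of 9 genes of retinol uptake and binding and 6 of 15 dehydrogenases and reductases. So did 1 of 5 genes of retinal oxidation and retinoic acid hydroxylation and 4 of 6 carriers and receptors. Of the coregulators 5 of 5 did, and of the targets 6 of 13. For the dim genes a change may not be detectable. For uptake, binding and esterification of retinol, 9 of 10 genes were measured and none passed. The retinol-esterifying enzyme gene DGAT1 differed by a log2 of 0.17 (standard error 0.074, adjusted p = 0.485 from limma). The binding protein gene RBP7 differed by 0.22 (standard error 0.10, adjusted p = 0.514 from limma). RBP7 lay below the array median on all 9 arrays, so a change of it may not be detectable. Of 15 measured other retinol dehydrogenases and retinal reductases none passed. AKR1C3 reduces retinal and steroids, and its log2 difference was 0.37 (standard error 0.13), with an adjusted p of 0.376 from limma. For DHRS4, an NADP-dependent retinal reductase, it was -0.60 (standard error 0.24) with an adjusted p of 0.438. Both belong to families with near-identical copies, so that their probes may also read these.

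Retinoic acid formation and breakdown outside the genes above gave no change past the test. Of 5 genes measured, the aldehyde oxidase gene AOX1 had a log2 difference of -0.15 and the retinoic acid hydroxylase gene CYP26A1 one of 0.19 (adjusted p = 0.572 and 0.607 from limma). Among 6 carriers and receptors, PPARD, a receptor that can take up retinoic acid from FABP5, had 0.13 and RXRG, an RXR, had -0.13 (adjusted p = 0.563 and 0.684 from limma). Among the 5 receptor coregulators measured, CREBBP and EP300, the acetyltransferases that coactivate many receptors, had 0.24 and 0.27 (adjusted p = 0.220 and 0.412 from limma). CREBBP, with 5.86 to 6.02 in the controls of set 1 and 6.23 on both GNE-140 arrays, had no overlap in either set. Each GNE-140 array was above each control of its set, as for 3.85% of all genes. Of 13 other targets of retinoic acid none passed with the set as a block. ICAM1, an adhesion molecule that many other signals also induce, had 6.15 to 6.34 in the controls of set 1 and 6.47 and 6.58 with GNE-140. In set 2 it had 6.72 and 6.90 in controls and 7.54 and 7.37 with GNE-140, so that the groups did not overlap. ICAM1 was thus, with NRIP1 and CREBBP, 1 of 3 among the 53 genes with this separation in both sets. Its log2 difference was 0.45 (standard error 0.095, adjusted p = 0.112 from limma). PLAAT4, also named retinoic acid receptor responder 3, had -0.28 (standard error 0.11, adjusted p = 0.445 from limma), with each GNE-140 array below each control of its set, as for 3.28% of all genes. TGM2, a classical target of retinoic acid, did not pass either.

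**Figure D3:**
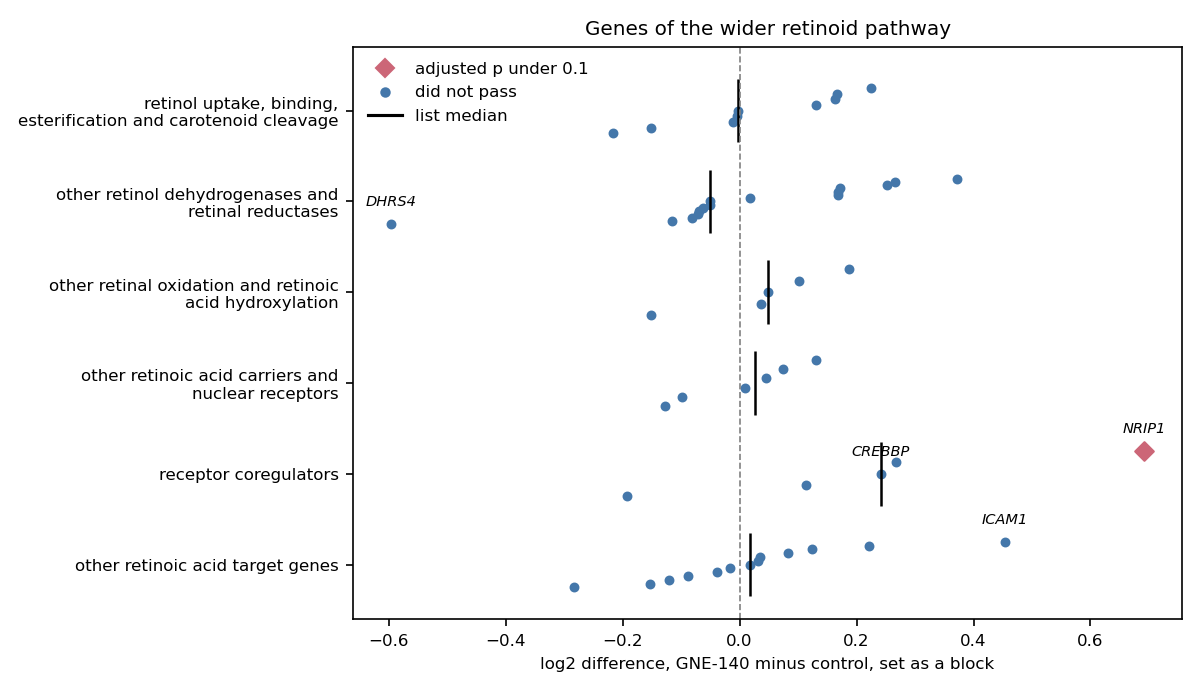
Log2 difference of GNE-140 minus control with the set as a block (horizontal axis) for each measured gene of 6 lists of the wider retinoid pathway, with list medians as black lines. NRIP1, the red diamond at 0.69, is the gene with an adjusted p under 0.1, and the other genes (blue circles) did not pass.

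None of the measured genes nearest to DHRS9 on chromosome 2 passed. Of the 3 genes on either side in the annotation, 4 were measured. The bile salt exporter gene ABCB11 just before it had a log2 difference of 0.04 and the glucose-6-phosphatase gene G6PC2 one of -0.08 (adjusted p = 0.867 and 0.712 from limma). The endocytic receptor gene LRP2 after it had 0.02 and the Bardet-Biedl gene BBS5 0.0023 (adjusted p = 0.939 and 0.996 from limma). G6PC2, ABCB11 and LRP2 lay below the array median on all 9 arrays, and LRP2 had 1 value on all 5 arrays of set 1, so a change of these may not be detectable.

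The pattern of DHRS9 over the 9 arrays, after each set's mean was subtracted, was most like those of METTL13 (r = 0.989), MID1IP1 (r = 0.988), SLC35A5 (r = 0.983), MYLIP (r = 0.981) and ZNF672 (r = 0.981), and most unlike those of ADGRF5 (r = -0.986), PRKG1 (r = -0.982), TMEM205 (r = -0.981), EPB41L4B (r = -0.981) and TROAP (r = -0.978). These are descriptions over 9 arrays that share the 2 groups, and 383 of 22353 genes had r over 0.9. MYLIP, a ubiquitin ligase that degrades the LDL receptor, had a log2 difference of 0.58 (0.33 in set 1 and 0.88 in set 2). PRKG1, a cGMP-dependent protein kinase, had -0.23 in set 1 and -0.51 in set 2. The choice by likeness to DHRS9 fixes such a pattern over the sets. Among the other 9 members RDH10 had the highest r (0.883), and ALDH1A3 had r = 0.680, RARB 0.557, RDH11 0.526, CRABP2 0.200, ALDH1A1 -0.096, DHRS3 -0.295, CYP26B1 -0.376 and RARA -0.548. Of the 53 measured genes of the 6 lists of the wider pathway, NRIP1 (r = 0.897) and RBP7 (r = 0.886) lay above RDH10. ICAM1 (r = 0.882) lay just below it, and the lowest r was that of NCOA2 (-0.866). RBP7 lay below the array median on all 9 arrays, with a log2 difference of 0.03 in set 1 and 0.46 in set 2. The plot of DHRS9 against 3 genes shows these values array by array.

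**Figure D4:**
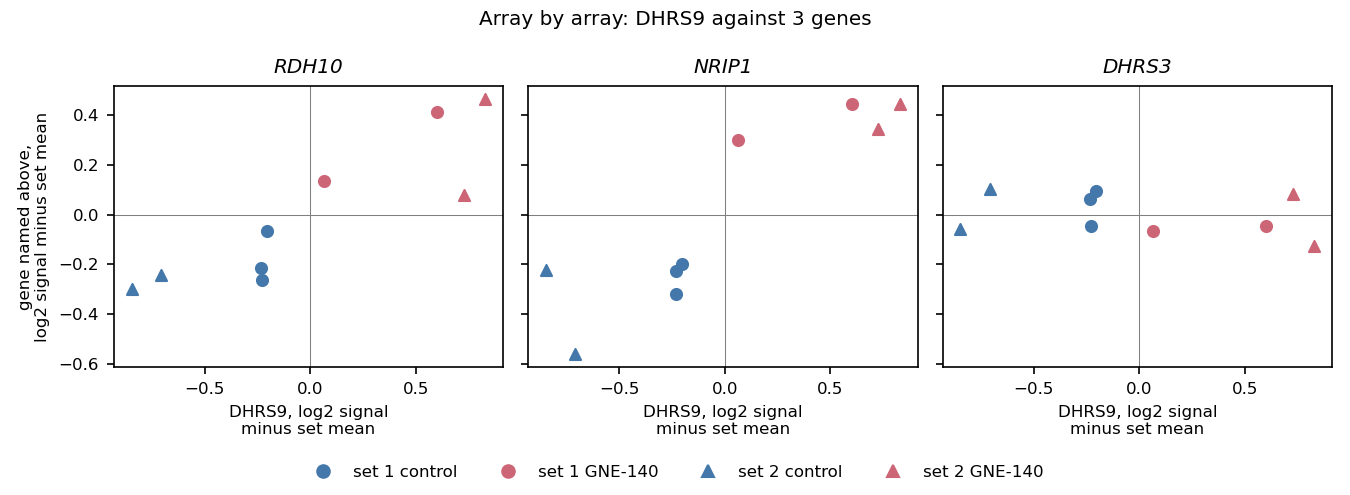
Log2 signal minus the set mean of RDH10, NRIP1 and DHRS3 (vertical axes) against that of DHRS9 (horizontal axis) on the 9 arrays, with controls in blue, GNE-140 in red, set 1 as circles and set 2 as triangles. For RDH10 and NRIP1 the 4 GNE-140 arrays lie above 0 on both axes and the 5 controls below, whereas for DHRS3 (r = -0.295) they are mixed.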

How the data were processed

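RNA of 9 arrays was measured. The deposited log2 values are the authors' own, and the submitters' processing notes name Expression Console and Transcriptome Analysis Console (both Affymetrix) for them. How probes were summarized and normalized, and the versions, stays not given in the sources used here. Of 53617 probe sets, 23866 carry 1 gene symbol, 1852 several and 27899 none in the platform annotation, updated through RefSeq (GRCh38.p14). A gene with more than 1 probe set was read from the one highest on average over the 9 arrays. Arrays have no depth, and their number limits the precision. Groups were taken from titles and treatment labels.

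GNE-140 was compared with control by lmFit and eBayes of limma 3.58.1 (R 4.3.3), with the set as a block, and within sets from 4 group means with a common spread. An adjusted p under 0.1 was the study's FDR threshold, and its further criteria (a fold over 2 and sets that run the same way) were not asked here. On simulated data made from these 53617 probe sets, the fit with the set as a block recovered 45 of 100 changes of 0.5 and 75 of 100 of 1 (log2), with 18 false calls among 138. The simulated noise was normal and independent between probe sets, and each change was the same in both sets. It held none of the identical values of set 1, so recovery in the real data may differ. The members and lists were chosen with earlier results of these data known. Genes named beyond the members are those of each list that passed (up to 4) and up to 2 others by unadjusted p, 5 at each end of likeness to DHRS9, and the neighbours. The marker genes and TGM2 were named after their values were seen. Alternatives were no set term, the replicate letter within the set as a block, quantile normalization, centring on medians, dim probe sets not tested, each set alone, and leaving out each array. Same-lettered control and GNE-140 arrays did not deviate together, so letters were not taken as pairs, though so few arrays cannot exclude pairing.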

Additional observations from a re-analysis of the deposited data

How the results depend on the processing

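The number of probe sets that passed was 517 with the set as a block, 0 without the set term, in set 1 alone, in set 2 alone and with the replicate block, 847 when dim probe sets were not tested (26779 tested), and 155 to 528 without 1 array (in set 2, 155 without GNE-140 B, 185 without GNE-140 A, 157 without control A and 202 without control B, and in set 1, 336 without control B). Same-lettered control and GNE-140 arrays deviated with r = 0.030 (A) and -0.15 (B) in set 1. In set 2 the value was -0.0025 for A and for B, which is 1 check, since 2 arrays of a group deviate by opposite amounts. These values are too few to settle whether the letters mark pairs. Of the members other than DHRS9, 1 (RDH10) passed after quantile normalization and 1 (RDH10) when dim probe sets were not tested, and 0 under the other settings. Of the wider lists the 1 gene that passed became 0 without the set term, with the replicate block and in each set fitted alone, and 2 when dim probe sets were not tested (NRIP1 and ICAM1, adjusted p = 0.068). Without 1 array it stayed 1. The contrasts within sets from the 4 group means use the spread of all 9 arrays. There NRIP1 and ICAM1 were under 0.1 in set 2 (adjusted p = 0.049 and 0.058 from limma) and not in set 1 (0.233 and 0.733). The share of all genes that passed these contrasts was not counted. The difference of DHRS9 was 0.56 in set 1 alone, 1.56 in set 2 alone and 0.89 to 1.24 without 1 array, and moved by less than the spread between replicates under the other settings.

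Some small differences changed sign, none of which passed either way. Without the set term, DHRS3 had 0.12, CYP26B1 0.0047 and RARA 0.015, in a fit whose median over all probe sets was 0.085, against 0.0049 with the set as a block. ALDH1A1 had -0.0049 with the replicate block, -0.015 after centring, -0.0097 in set 2 alone and -0.024 to 0.031 without 1 array. ALDH1A3 had -0.0099 and CRABP2 -0.011 in set 1 alone. CRABP2 had -0.017 after quantile normalization, -0.0076 after centring and -0.029 to 0.038 without 1 array. Without 1 array RARA had -0.33 to -0.05, ALDH1A3 0.05 to 0.18, CYP26B1 -0.17 to -0.04, RARB 0.11 to 0.29, DHRS3 -0.11 to -0.04 and RDH11 0.07 to 0.17. Other probe sets of a member could not be tried, since each had 1.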

Other observations

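With the set as a block, the 3 further lists around DHRS9 held no gene that passed. Of 8 measured genes of steroid 3-alpha oxidoreductases and 5-alpha reductases, which act on steroids as DHRS9 does, the median log2 difference was -0.03. AKR1C3 had 0.37 and the steroid 5-alpha-reductase gene SRD5A2 -0.15 (adjusted p = 0.376 and 0.727 from limma). SRD5A2 lay below the median of every array, so a change of it may not be detectable. Of 10 other DHRS genes the median was 0.04. DHRS2, also a short-chain dehydrogenase, had 0.42 (standard error 0.15, adjusted p = 0.398 from limma), with 1.35, 1.29 and 1.35 in the controls of set 1 against 1.52 and 1.35 with GNE-140, and 3.01 and 2.65 against 3.79 and 3.48 in set 2. Its groups thus overlapped in set 1 alone. In the set 2 contrast from the 4 group means, DHRS2 had an adjusted p of 0.068 from limma. Of 15 other aldehyde dehydrogenase genes the median was -0.04, and the fatty aldehyde dehydrogenase gene ALDH3A2 had 0.12 and the methylmalonate semialdehyde dehydrogenase gene ALDH6A1 -0.15 (adjusted p = 0.578 and 0.578 from limma).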
